A study of Mus musculus with 12 samples.

Results

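The 9 genes described here encode proteins of central nervous system myelin, except *Ugt8a*, which encodes an enzyme that makes a myelin lipid. The 9 genes are *Mbp*, *Mog*, *Mag*, *Mobp*, *Cnp*, *Mal*, *Opalin*, *Cldn11* and *Ugt8a*. They were chosen by name from the 50457 genes listed for whole brain of mice with experimental autoimmune encephalomyelitis (EAE), the mouse model of multiple sclerosis, and all 9 were found. RNA-Seq was performed on brains of 12 female C57BL/6J mice, 8 to 12 weeks old at purchase, that had been immunized with the MOG35-55 peptide in Complete Freund's Adjuvant with heat-killed *Mycobacterium tuberculosis* and without pertussis toxin. EAE/CBD mice received cannabidiol (CBD) orally at 75 mg/kg in corn oil (CO) for 5 days, EAE/CO mice received the oil alone, and brains were taken on Day 18. By the sample labels there were 4 symptomatic and 3 asymptomatic EAE/CBD mice, and 2 symptomatic and 3 asymptomatic EAE/CO mice. One symptomatic mouse of cohort B is listed as CBD-treated in the labels and under corn oil in the paper, which would make all groups equal in size, and which of the 2 the deposited means used cannot be read from the tables. Every group held mice of both cohorts. Mice that were not immunized were not analysed here, so the immunization is shared by all groups.

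Each value is a level, the larger of the 2 group means (asymptomatic and symptomatic) that the authors deposited for a gene. One table covers the EAE/CBD mice and another the EAE/CO mice. The unit is not stated, the table does not say which of the 2 groups gave the larger mean, and no value per mouse was used. The levels below therefore carry no error and no test, and a ratio between the tables can set symptomatic against asymptomatic mice. Whether the tables were normalized together is not stated either. The reads behind each level are unknown. No asymptomatic against symptomatic difference is given within a treatment, because the only values for it are those of the authors' own comparisons, which were not used.

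Myelin is the stacked membrane that oligodendrocytes wrap around axons. Its cytoplasmic faces are held together mainly by myelin basic protein. Its membranes carry glycoproteins of the immunoglobulin family, and its lipid is rich in galactosylceramide. In EAE, T cells primed against a myelin protein enter the central nervous system, and in multiple sclerosis myelin is lost in focal lesions. *Mog* takes a particular place here, since the peptide used for immunization comes from the protein it encodes, myelin oligodendrocyte glycoprotein. The stretch of *Mog* that encodes this peptide is shown to place the immunogen in the gene that was measured. It lies in exon 2 of 8 of the canonical GENCODE transcript, on the minus strand of GRCm39, and the capitals mark its 63 bases, which are codons 64 to 84 of the open reading frame and residues 35 to 55 in the numbering of the peptide. The lower-case flanks are 30 bases of the same exon on either side.
*Mog*, chr17:37331417-37331539: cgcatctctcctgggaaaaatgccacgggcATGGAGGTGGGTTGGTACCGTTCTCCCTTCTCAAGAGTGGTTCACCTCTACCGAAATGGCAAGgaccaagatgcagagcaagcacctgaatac

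The levels of the myelin genes spanned a wide range, from near the top to the middle of the ranked genes. Only the 12464 genes whose level reached 1 in both tables were ranked, and all 9 members were among them. *Mbp*, which encodes the basic protein that compacts myelin, had the highest level of the 9, 529.20 in the EAE/CBD table and 381.31 in the EAE/CO table, ranks 85 and 133 of the 12464 genes. *Cnp*, the cyclic nucleotide phosphodiesterase of non-compact myelin, followed with 245.22 and 199.08, ranks 252 and 311. *Opalin* ranked 4282 and 4939 and *Ugt8a* 5709 and 6963, while the other 5 members ranked from 663 to 1123 in the EAE/CBD table and from 837 to 1421 in the EAE/CO table. These genes differ in transcript length, and as the unit is not stated, it is not known whether levels were divided by length, so the order between genes is that of the tables and not a measured order of molecules. Without values per mouse, it could not be said which neighbours in that order differ beyond their spread.

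Among the adhesion and surface proteins, *Mag*, the sialic acid-binding glycoprotein of the innermost myelin layer, had levels of 101.24 (EAE/CBD) and 77.96 (EAE/CO). *Mog*, the outer surface glycoprotein that supplied the immunogen, had 60.78 and 48.28. *Opalin*, a transmembrane glycoprotein of mature oligodendrocytes, was far lower at 14.20 and 11.71. *Cldn11*, the claudin of the tight junctions between myelin layers, had 92.91 and 70.95, and *Mal*, a tetraspan proteolipid of myelin membranes, had 78.79 and 60.61. *Mobp*, a basic protein of compact myelin, had 76.82 and 48.92. *Ugt8a*, the enzyme that makes galactosylceramide, had the lowest level of the 9 at 9.60 and 6.73. The order of the 9 genes was the same in both tables, and *Mbp* was 55.1 times the level of *Ugt8a* in the EAE/CBD table and 56.7 times in the EAE/CO table. All 9 levels were thus higher in the EAE/CBD table than in the EAE/CO table.

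**Figure D1:**
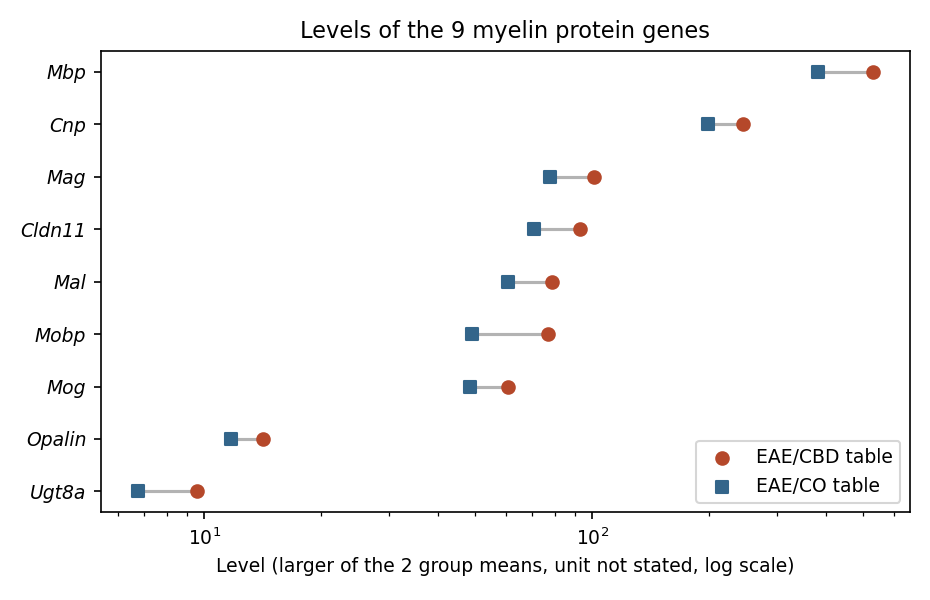
Level of each of the 9 myelin protein genes, the larger of the 2 group means, on a log axis without a stated unit. Circles stand for the EAE/CBD table and squares for the EAE/CO table; every circle lies to the right of its square, from *Mbp* at 529.20 and 381.31 down to *Ugt8a* at 9.60 and 6.73, and pooled values carry no error bars.

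The ratio of the EAE/CBD level to the EAE/CO level was above 1 for 9 of 9 members, where 56.5% of the 12464 genes had a ratio above 1 and 42.9% a ratio below 1. The median ratio was 1.30 over the members and 1.02 over all 12464 genes, whose middle quartiles ran from 0.928 to 1.13. *Mobp* had the highest ratio at 1.57 (log2 ratio 0.65), and was the only member past 1.5-fold; 2.46% of all genes were past 1.5-fold upwards. At a lower threshold of 0.32 on the log2 scale, 7 of 9 members passed and 10.8% of all genes did, and at 2-fold no member and 0.345% of all genes passed. Downwards, no member was past any of these folds, where 7.1%, 1.53% and 0.112% of all genes were past the lowest, the 1.5-fold and the 2-fold threshold.

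*Ugt8a* and *Mbp* had the next ratios, 1.43 and 1.39. *Cldn11*, *Mal* and *Mag* lay close together at 1.31, 1.30 and 1.30, and *Mog* had a ratio of 1.26. *Cnp* at 1.23 and *Opalin* at 1.21 were the members that did not pass the lower threshold. Ranked by ratio among all 12464 genes, *Mobp* stood at 226 and *Opalin* at 1738, so all 9 lay within the highest 13.9%. The members' ratios did not follow their levels, as *Ugt8a* with the lowest level and *Mbp* with the highest had similar ratios. The members come from 1 tissue and largely from 1 cell type, so they are not 9 separate observations of the difference between the tables. In whole brain, a difference in the number of oligodendrocytes and a difference in myelin RNA per oligodendrocyte cannot be told apart.

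**Figure D2:**
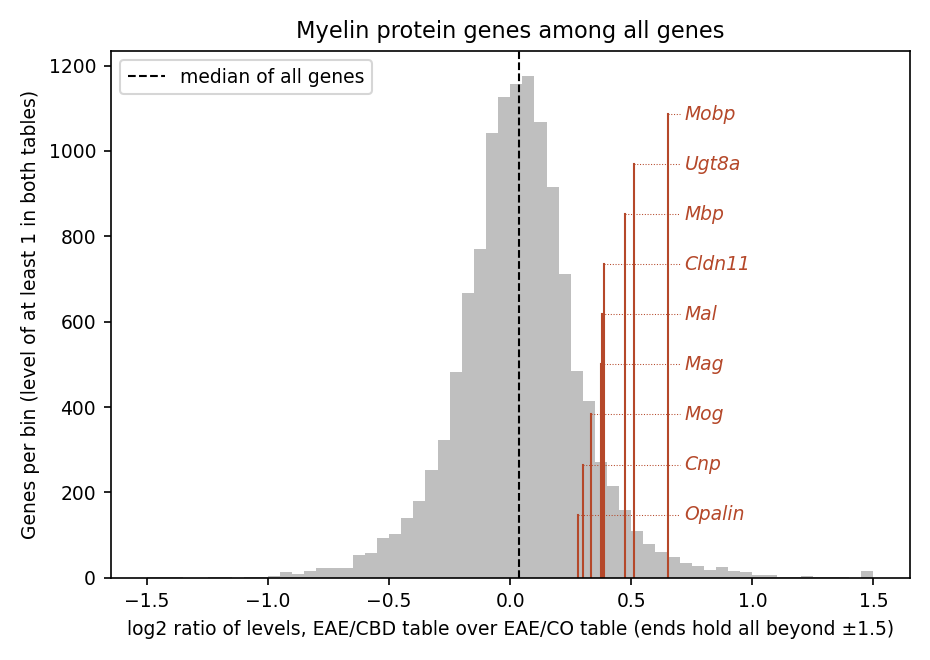
Distribution of the log2 ratio of levels (EAE/CBD table over EAE/CO table) over the 12464 genes whose level reached 1 in both tables, in grey, with the median of all genes as a dashed line and the 9 members as labelled lines whose heights only separate the labels. All 9 members lie to the right of the median of all genes (0.04 on the log2 scale), from *Opalin* at 0.28 to *Mobp* at 0.65.

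Summed over the 9 genes, the levels came to 1209 in the EAE/CBD table and 906 in the EAE/CO table, a ratio of 1.33. The summed levels of all listed genes were 366929 and 358949, a ratio of 1.02. The 9 genes made up 0.329% of the summed level in the EAE/CBD table and 0.252% in the EAE/CO table. *Mbp* alone gave 43.8% and 42.1% of the members' sum. The 37 genes of the mitochondrial chromosome are listed at 0 in both tables, so these percentages are of what is listed and not of all brain RNA.

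The other genes of the oligodendrocyte lineage mostly had ratios in the same direction. Of 13 further central myelin proteins, 12 had a higher level in the EAE/CBD table, with a median ratio of 1.27. *Cd9*, a tetraspanin, and *Gpm6b*, a membrane glycoprotein, had ratios of 1.14 and 1.30. The exception was *Omg*, the oligodendrocyte myelin glycoprotein, which neurons express as well, at 43.96 and 45.87. *Ermn* and *Plekhh1*, at 1.60 and 1.51, were the list's genes past 1.5-fold; these and *Omg* were named after their values were seen.

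All 8 genes of myelin lipid synthesis and trafficking had ratios above 1, with a median log2 ratio of 0.32. *Enpp2*, which makes lysophosphatidic acid and is also high in choroid plexus, had 84.79 and 77.01. *Gltp*, a glycolipid transfer protein, had 43.56 and 30.22, and *Fa2h*, which hydroxylates the fatty acids of galactosylceramide, had 28.56 and 21.99. *Aspa*, which releases acetate from N-acetylaspartate, was past 1.5-fold at 1.73, named after its value was seen.

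Of the 10 oligodendrocyte transcription factors, 8 reached a level of 1 in both tables, of which 7 had a ratio above 1 and the median was 1.36. *Olig1*, a lineage factor, had levels of 110.83 and 84.09, and *Sox10*, which switches on myelin genes, 26.70 and 21.94. *Nkx6-2* had 21.59 and 13.28, a ratio of 1.63, and with *Tcf7l2* at 1.86 made up those past 1.5-fold. *Sox8* alone was lower, at 12.02 and 13.87; *Tcf7l2* and *Sox8* were named after their values were seen. Genes of oligodendrocyte precursors were at lower levels: of 9, 8 reached a level of 1 in both tables, and 6 of these had a ratio above 1, with a median of 1.23. *Ptprz1* had 16.85 and 12.98, *Lhfpl3* 9.62 and 5.78, a ratio of 1.66 past 1.5-fold, and *Gpr17*, a receptor of cells committed to differentiate, 6.87 and 7.13. *Bmp4*, named after its value was seen, was the other precursor gene with a lower level in the EAE/CBD table, at 1.71 against 2.33.

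Markers of other cell types were read in the same tables to check the tissue. Neuronal genes were abundant, with *Snap25* at 687.84 and 767.30, *Tubb3* at 279.83 and 262.27 and *Stmn2* at 253.62 and 253.61, and 3 of 7 had a ratio above 1, with a median of 0.925. Their summed level was 1514 in the EAE/CBD table and 1593 in the EAE/CO table. Astrocyte genes had ratios above 1 in 6 of 7, with a median of 1.19, including *Aldoc* at 622.44 and 521.55, *Gfap* at 216.74 and 155.61 and *Slc1a2* at 87.36 and 84.64. Their summed level was 1141 and 933, so the astrocyte list also lay higher in the EAE/CBD table. Ratios above 1 were found for 5 of 6 microglial and 5 of 5 endothelial genes, with median ratios of 1.12 for microglia and, on the log2 scale, 0.33 for endothelium. *Csf1r* of microglia, the receptor they need to survive, had 56.08 and 51.12, and *Cldn5* of endothelium had 38.55 and 37.45. *Cldn5* had the lowest endothelial ratio at 1.03, and *Flt1*, named after its value was seen, the highest at 1.40. *Aqp4* of astrocytes at 1.70 and *P2ry12* of microglia at 1.51 were the genes past 1.5-fold in these lists. Both were named after their values were seen. The lists thus differed in their median ratios, and the part of cell composition in the myelin ratios was not tested.

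Schwann cells make the myelin of peripheral nerves, and 5 of their 7 genes did not reach a level of 1 in both tables. *Prx*, a cytoskeletal protein of peripheral myelin, had 0.21 and 0.16 and *Pmp2*, a fatty acid-binding protein of peripheral myelin, 0.06 and 0.03, both under a level of 1, and *Egr2*, which is also an immediate early gene of neurons, had 0.76 and 1.26. Only *Pmp22* at 15.54 and 12 and *Drp2* at 4.80 and 6.03 reached a level of 1 in both tables, and the 7 genes summed to 22.4 and 20.01. *Prx* and *Pmp2* were named after their values were seen.

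Genes of infiltrating leukocytes did not share one direction. Of 6 T cell genes, 4 reached a level of 1 in both tables and none of these was higher in the EAE/CBD table: *Cd3g* had 2.92 and 5.19, *Cd3e* 2.24 and 2.67 and *Cd3d* 1.96 in both. Of 5 monocyte genes, *Chil3* at 18.55 and 7.18, *Ccr2* at 2.38 and 1.85 and *Itgal* at 3.20 and 2.88 had a higher level in the EAE/CBD table, the last 2 named after their values were seen. *Ly6c2* at 23.38 and 29.83 and *Plac8* at 3.42 and 4.57 had a lower level there. Past 1.5-fold were *Chil3* upwards, with a ratio of 2.58, and *Cd3g* downwards, with a ratio of 0.563. The summed T cell level was 8.84 and 11.8 and the monocyte level 50.9 and 46.3. Whether leukocyte content and the myelin levels are related could not be tested without values per mouse.

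**Figure D3:**
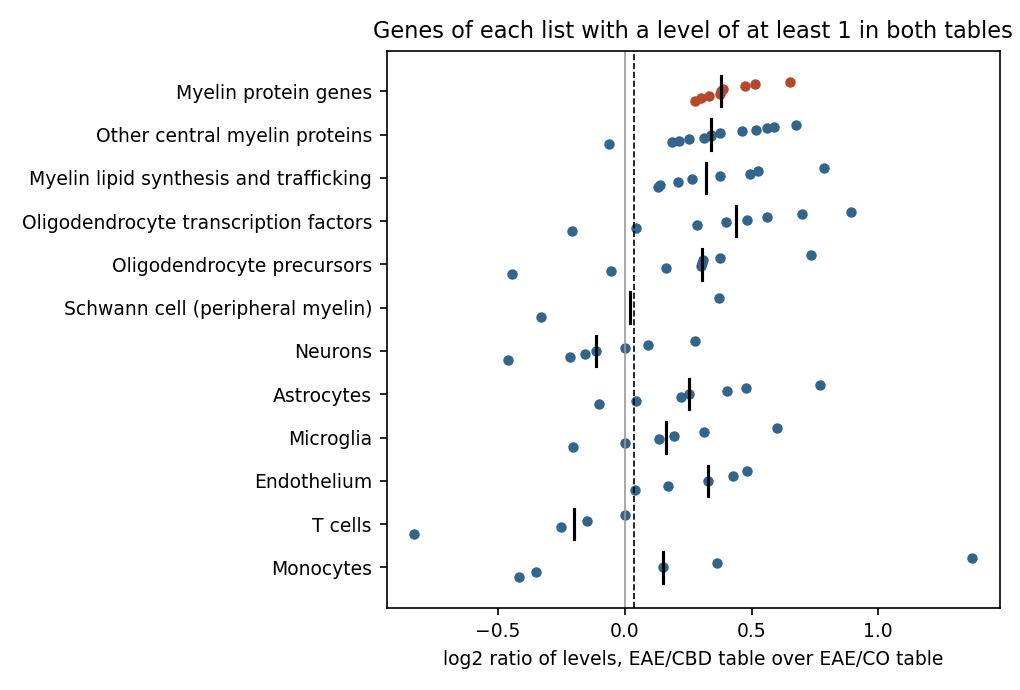
log2 ratio of levels (EAE/CBD table over EAE/CO table) for the genes of each list whose level reached 1 in both tables. Points are genes, short black bars the list medians, the solid grey line a ratio of 1 and the dashed line the median of all genes. The 9 members run from 0.28 to 0.65, and lineage lists have medians from 0.30 to 0.44. Other medians are 0.33 for endothelium, 0.26 for astrocytes, 0.16 for microglia and 0.15 for monocytes. Schwann cell genes are at 0.02, neurons at -0.11 and T cells at -0.20.

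RefSeq promoter windows of GRCm38.p6, from 250 bases before to 50 after a gene's start, were matched by symbol for 8 of the 9 members, and *Mbp* had none. They were searched on both strands for the SOX motif ACAAAG or ACAATG, which SOX10 can bind, the MYRF motif CTGGCAC and the E-box CAGCTG bound by factors such as OLIG2. No motif contains another. The SOX motif was in a window of 4 of the 8 (*Cnp*, *Mag*, *Mobp* and *Opalin*), and 28.6% of the 32851 windows of all genes held it. The MYRF motif was in a window of 3 (*Cnp*, *Mag* and *Opalin*), beside 5.01% of all windows, and the E-box in *Opalin* only, beside 16.3%. *Mag* has 3 windows and so had more chances of a match. The windows of *Mobp*, with the highest ratio, and of *Opalin* and *Cnp*, with the lowest, are shown, with motif matches in capitals. Their GRCm38.p6 positions cannot be set beside GRCm39 positions.
*Mobp*, chr9:120149492-120149791, plus strand: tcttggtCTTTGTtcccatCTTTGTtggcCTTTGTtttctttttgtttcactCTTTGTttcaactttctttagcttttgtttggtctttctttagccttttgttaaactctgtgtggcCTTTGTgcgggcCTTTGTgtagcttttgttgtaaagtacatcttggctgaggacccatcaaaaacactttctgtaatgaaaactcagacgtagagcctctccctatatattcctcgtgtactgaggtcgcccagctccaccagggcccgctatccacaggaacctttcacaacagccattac
*Opalin*, chr19:41077064-41077363, minus strand: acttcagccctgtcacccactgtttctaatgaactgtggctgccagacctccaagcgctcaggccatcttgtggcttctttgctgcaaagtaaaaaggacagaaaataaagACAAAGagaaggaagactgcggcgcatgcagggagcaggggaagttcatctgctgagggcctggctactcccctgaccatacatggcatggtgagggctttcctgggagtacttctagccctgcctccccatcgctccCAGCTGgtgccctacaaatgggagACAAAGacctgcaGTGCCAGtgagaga
*Cnp*, chr11:100574689-100574988, plus strand: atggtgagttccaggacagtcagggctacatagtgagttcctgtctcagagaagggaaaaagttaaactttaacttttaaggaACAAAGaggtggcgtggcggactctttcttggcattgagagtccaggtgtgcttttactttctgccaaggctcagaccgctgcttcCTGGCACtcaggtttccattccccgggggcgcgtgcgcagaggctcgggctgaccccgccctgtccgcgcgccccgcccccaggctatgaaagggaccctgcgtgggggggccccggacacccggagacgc
The *Mobp* window held 6 matches of the SOX motif, all on the opposite strand as CTTTGT, and none of the MYRF motif. *Opalin* held 2 SOX matches, 1 MYRF match and 1 E-box, and *Cnp* 1 SOX and 1 MYRF match. Such matches describe the letters of the windows and not binding.

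The genes lie on 8 chromosomes, and the positions of the files and of GENCODE fall on the same locus and strand for all 9 (GRCm39). *Cldn11* and *Ugt8a* share chromosome 3, where *Cldn11* runs from 31204069 to 31218475 on the plus strand and *Ugt8a* from 125655071 to 125732301 on the minus strand. *Mobp* lies on chromosome 9 from 119978740 to 120010554, and *Mog* on chromosome 17 from 37321632 to 37334290. *Mbp* on chromosome 18 had the longest span, from 82492883 to 82603762, and *Cnp* on chromosome 11 the shortest, from 100465765 to 100472565. *Mag* lies on chromosome 7 from 30598600 to 30614347, *Mal* on chromosome 2 from 127475146 to 127498615 and *Opalin* on chromosome 19 from 41050398 to 41065552. In GENCODE, 5 of the 9 overlap another annotated gene. *Mobp* overlaps 4 lncRNA genes, 1 of them on its own strand. *Mog* overlaps *Zfp57*, a protein-coding gene, and a noncoding gene, both on the opposite strand, and *Mbp*, *Mag* and *Ugt8a* overlap noncoding genes or a pseudogene on the opposite strand. For the strand setting of the counting, not given in the sources used here, no assumption was made, and reads may have been shared between these 5 genes and the overlapping ones.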

How the data were processed

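Whole-brain RNA-Seq of 12 mice was analysed through pooled values. According to the labels, 150 bp paired-end reads were trimmed, aligned with GRCm39 and tested in CLC Genomics Workbench (version not given in the sources used here). GRCm38 is named too in the submitters' processing notes. Of 40301 gene positions compared with GENCODE, 99.95% lay at the same place and strand on GRCm39. The authors deposited a larger group mean per gene (a level, unit not stated, pooled over mice) beside fold changes, p-values and FDRs of their own comparisons, which were not used. The tables of CBD against CO, matched by symptoms, list only 14 (symptomatic) and 5 (asymptomatic) genes, which the paper reports as differentially expressed. No member was among these genes, and their values were not used. The tables were compared with no further scaling, and whether they were normalized together is not stated.

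Levels were joined by gene name and position, ratios were taken for genes whose level reached 1 in both tables, and folds past 1.5 were counted. The ratios and counts were checked on simulated levels without noise, which tests the arithmetic only and not the choice of the larger mean. Alternatives were a lower fold (0.32 on the log2 scale) and 2-fold, scaling by the median ratio or the summed levels, a pseudocount of 1, the reversed EAE/CO table, and sums over fewer genes. Members and lists were chosen with earlier results of these data known. The text names all 9 members, the 3 genes of highest mean log2 level of most lists, and others where stated; some genes are not reported here. Python 3.11.15, pandas 2.3.3 and matplotlib 3.10.9 were used.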

Additional observations from a re-analysis of the deposited data

How the results depend on the processing

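No paired analysis was possible because the tables hold no values per mouse; for the same reason no mouse could be left out. The count of members past the fold in the EAE/CBD direction was 1 at 1.5-fold, 7 at the lower fold (0.32 on the log2 scale) and 0 at 2-fold, while 10.8% and 0.345% of all genes were past the latter 2 folds; scaling by the median ratio and the reversed EAE/CO table both left it at 1. The count in the other direction was 0 under each of these settings. The median log2 ratio of the members was 0.38, and became 0.34 when scaled by the median ratio of all genes, 0.35 when scaled by the summed levels and 0.37 with a pseudocount of 1. The reversed EAE/CO table held the same levels for all genes. Without the 10 genes of highest level, the members' percentage of the summed level was 0.346% (EAE/CBD) and 0.264% (EAE/CO), and it moved by less when only genes with a level of at least 1 were summed. All 9 members stayed above a ratio of 1 when scaled by the median ratio, with a pseudocount of 1 and with the reversed table, with log2 ratios from 0.24 to 0.65. These settings share the same pooled means, so they do not bear on the spread between mice.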
